A study of Homo sapiens with 6 samples.

Results

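The nuclear-encoded subunits of respiratory complexes I, III and IV, together with cytochrome c, were examined in cells labelled Daudi with and without knockdown of ENO1. Members were the genes whose symbol is NDUFA, NDUFB, NDUFC, NDUFS, NDUFV or NDUFAB followed by a number, and 18 listed symbols of complex III, cytochrome c and complex IV. This gave 56 of the 58273 genes in the deposited table, of which 37 were complex I genes, 7 complex III genes, 1 the cytochrome c gene and 11 complex IV genes. NDUFA4 was counted with complex IV, where the protein is placed in structures of the human enzyme, although it is named for complex I. All 56 members reached at least 0.5 FPKM (fragments divided by transcript length and library size) in at least 3 libraries and entered the test, as did 17870 genes in all.

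RNA-seq was performed on 3 wild type libraries and 3 libraries of the same line carrying an ENO1 short hairpin RNA (shENO1), numbered 1 to 3 in each group. Daudi is a cell line established from a Burkitt lymphoma, and ENO1 encodes alpha-enolase, a glycolytic enzyme that makes phosphoenolpyruvate. The labels describe the knockdown by its genotype and its hairpin alone, no library is labelled as carrying a control hairpin, and no batch, date or statement of separate cultures is given. The spread behind each p-value is therefore that among these samples and may be technical, and any effect of hairpin delivery cannot be told apart from that of the knockdown.

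The respiratory chain sits in the inner mitochondrial membrane and passes electrons from NADH and succinate to oxygen while it pumps protons, and ATP synthase uses the resulting gradient. Complex I takes electrons from NADH through a peripheral arm of core and accessory subunits into a membrane arm. Complex III hands them to cytochrome c, and complex IV reduces oxygen. The catalytic core of complex IV, cytochrome b of complex III and the membrane core of complex I are encoded by mitochondrial DNA, while the members here are made from nuclear genes scattered over many chromosomes (20 for these 56 genes in GENCODE release 29, GRCh38).

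The FPKM of a library summed to between 958697 and 1053890, of which 43.4% to 48.5% came from RN7SL1, RN7SK, RPPH1, RMRP and RN7SL2, which are small structural RNAs. Absolute depth is unknown, and the estimated depth relative to wild type replicate 1 ran from 1.02 to 1.27. ENO1, the targeted gene, was measured at 927, 998 and 1747 FPKM in wild type replicates 1 to 3 and at 212, 242 and 368 FPKM in shENO1 replicates 1 to 3. The groups did not overlap, with a log2 fold change of -2.14 (SE 0.29), a limma adjusted p of 0.518 over all genes and an exact two-sided permutation p of 0.1, which is the lowest p possible for 3 against 3. Its limma adjusted p was 0.00374 with the replicate number as a block. The label of the line was checked against B-cell markers. CD79B, a chain of the B-cell receptor, and MME were listed at 0 in all libraries, and MS4A1, the gene of CD20, did not exceed 0.101 FPKM, whereas CD22, CD38, CD79A and PAX5 were measured. Of 6 myeloid markers, which summed to 194 to 527 FPKM in wild type and 232 to 561 FPKM in shENO1, the lysozyme gene LYZ was measured at 154 to 482 FPKM and ELANE at 14.2 to 48.4 FPKM, while CD14 and MPO stayed under 0.5 FPKM. The defining B-cell markers were thus in part absent, and the part of this in the results was not tested.

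Some members hold short promoter motifs that have long been linked to respiratory genes, namely those of NRF1, of the ETS family, to which GABPA belongs, and of YY1. RefSeq promoter windows of 300 bases, from 250 before to 50 after the start site (GRCh38.p14), were matched for 47 members. On either strand and at any start site of a gene, the NRF1 letters, GCGC followed by A, any base and GCGC again, were found in 8 of the 47 (17%) and in 6.98% of 27305 genes. The ETS letters CCGGAAG were found in 12 members (25.5%) and in 12.2% of genes, and the YY1 letters AAGATGGCG in 7 members (14.9%) and in 2.14% of genes. At least 1 of the 3 was found in 25 members (53.2%) and in 19% of genes. Of 9 matched complex IV promoters, 5 held ETS letters and 0 held NRF1 or YY1 letters, whereas 6 of 32 complex I promoters held NRF1, 5 held ETS and 6 held YY1 letters. Complex III had 2, 2 and 1 of 5. These counts describe letters and do not show that a factor was bound. As examples, the 150 bases before the start site are given with motif letters in capitals. ETS letters are marked for 2 complex IV genes, COX6A1 (chr12:120437963-120438112, plus strand) and COX8A (chr11:63974470-63974619, plus strand). NRF1 letters are marked for 2 complex I genes, NDUFB4 (chr3:120596186-120596335, plus strand) and NDUFA9 (chr12:4648964-4649113, plus strand). Since 5 complex I promoters held ETS letters, these examples do not stand for a whole complex. CTTCCGG is the ETS motif read on the other strand.
COX6A1: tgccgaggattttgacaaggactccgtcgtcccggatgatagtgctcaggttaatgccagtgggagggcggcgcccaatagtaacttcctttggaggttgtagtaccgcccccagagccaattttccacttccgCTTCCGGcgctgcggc
COX8A: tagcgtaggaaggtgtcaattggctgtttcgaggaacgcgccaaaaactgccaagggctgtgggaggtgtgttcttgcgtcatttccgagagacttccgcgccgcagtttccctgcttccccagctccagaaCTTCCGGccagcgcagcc
NDUFB4: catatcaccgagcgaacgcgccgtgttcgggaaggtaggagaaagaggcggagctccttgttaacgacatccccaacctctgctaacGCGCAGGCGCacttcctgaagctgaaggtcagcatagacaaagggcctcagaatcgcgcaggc
NDUFA9: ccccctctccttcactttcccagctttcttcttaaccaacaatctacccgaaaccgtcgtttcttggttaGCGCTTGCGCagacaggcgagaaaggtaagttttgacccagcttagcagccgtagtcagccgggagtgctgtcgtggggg

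All members were transcribed in both groups, at levels that differed between genes far more than between groups. Mean FPKM, which is per length, ran from 5.17 for NDUFS6 to 498 for COX4I1. NDUFS6 is an accessory subunit of the peripheral arm of complex I, and COX4I1 is a nuclear-encoded subunit of complex IV. The median of the mean FPKM was 45.0 in complex I, 149.8 in complex III and 127.6 in complex IV. COX4I1 was measured at 473, 501 and 490 FPKM in wild type, against 496, 526 and 501 FPKM in shENO1, so that it varied little within either group. NDUFS6 was measured at 3.34, 3.93 and 7.53 FPKM in wild type, against 5.51, 5.65 and 5.09 FPKM in shENO1, with the whole shENO1 range inside the wild type range. The plot of levels in the 6 libraries shows this order and the overlap of the groups for each gene.

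**Figure D1:**
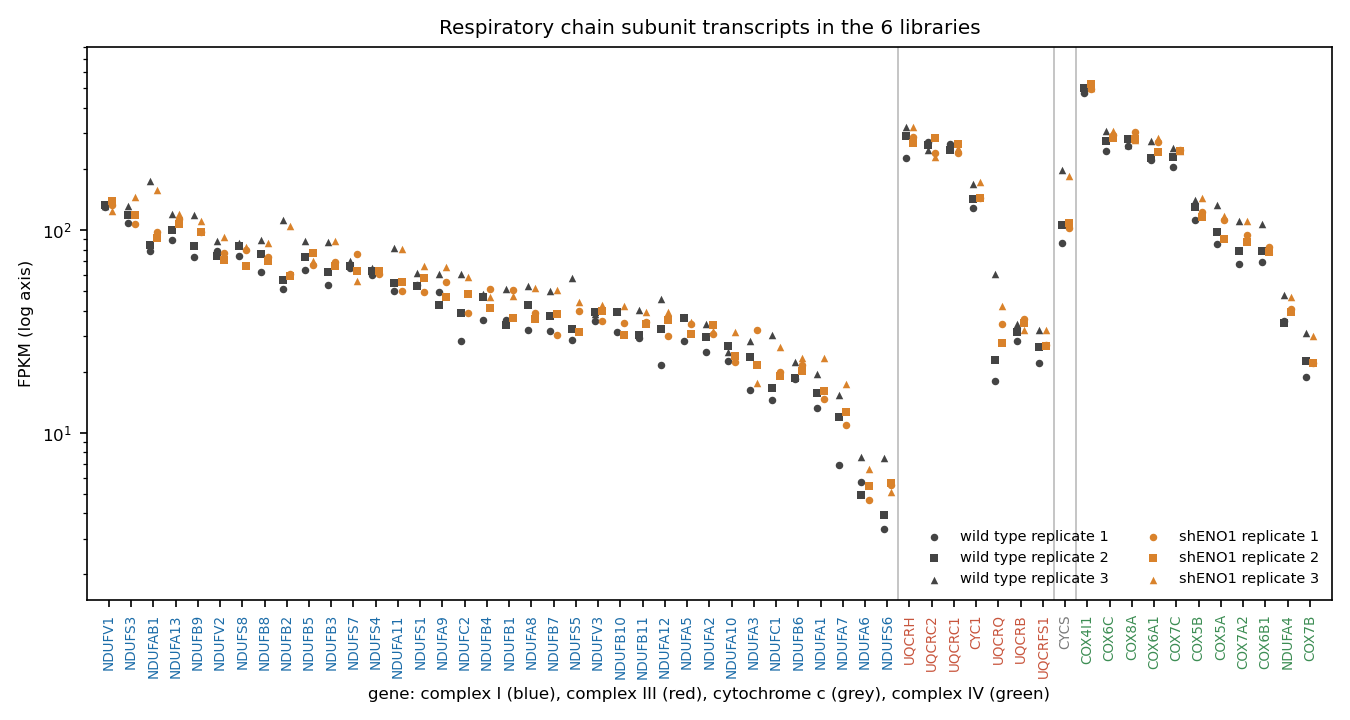
FPKM of 55 of the 56 members in each library on a log axis, ordered by mean level within complex I, complex III, cytochrome c and complex IV. Dark symbols are wild type and orange symbols shENO1, with a circle, square and triangle for replicates 1, 2 and 3. Levels span from about NDUFS6 (mean 5.17) to COX4I1 (mean 498), the 2 groups overlap for every gene drawn, and the triangles tend to lie highest.

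Between shENO1 and wild type, 0 of the 56 members passed the limma test at an adjusted p under 0.05, and the smallest adjusted p among them was 0.99986. Of all 17870 genes, 0% passed the adjusted p threshold, with or without a log2 fold change over 1. The targeted gene ENO1, at a log2 fold change of -2.14, did not pass either (limma adjusted p 0.518). A count of 0 in this fit therefore does not show that no gene changed. At an unadjusted p under 0.05, 0 members were higher and 0 were lower, against 0.901% and 1.07% of all genes, and the smallest unadjusted p was 0.296, for COX6A1. The groups overlapped for all 56 members, while 2.71% of genes were higher and 3.28% lower without overlap. With the replicate number as a block, 0 members had an unadjusted p under 0.05, against 3.77% of genes higher and 3.78% lower, and the smallest limma adjusted p was 0.659, while 0.0056% of genes, ENO1 alone, passed. In bulk RNA, fewer cells expressing a gene and less RNA of it per cell cannot be told apart.

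The log2 fold changes of the members, on the log2(FPKM + 0.5) scale, ran from -0.10 to 0.30 with standard errors of 0.0990 to 0.429, and their median was 0.06, against -0.0036 over all genes tested. A log2 fold change above 0 was found for 42 members, against 49.2% of all genes and 52.2% of the 10028 genes within the members' range of mean FPKM. None exceeded 2 standard errors. The count rested on single libraries. Without wild type replicate 1 it was 20 members (49.9% of all genes) and without shENO1 replicate 3 it was 28 (50.4% of all genes). Without wild type replicate 3 it rose to 50, where the median log2 fold change of all genes was -0.015. With every library scaled to the same FPKM sum it was 49, where 58.5% of all genes were above 0. The 95% intervals of 54 members lay within a 2-fold change either way, as did those of 74.3% of all genes, and the intervals of 39 members lay within 1.5-fold. The exceptions at 2-fold were NDUFA7, with an interval of -0.43 to 1.03, and UQCRQ, with an interval of -0.79 to 1.23.

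**Figure D2:**
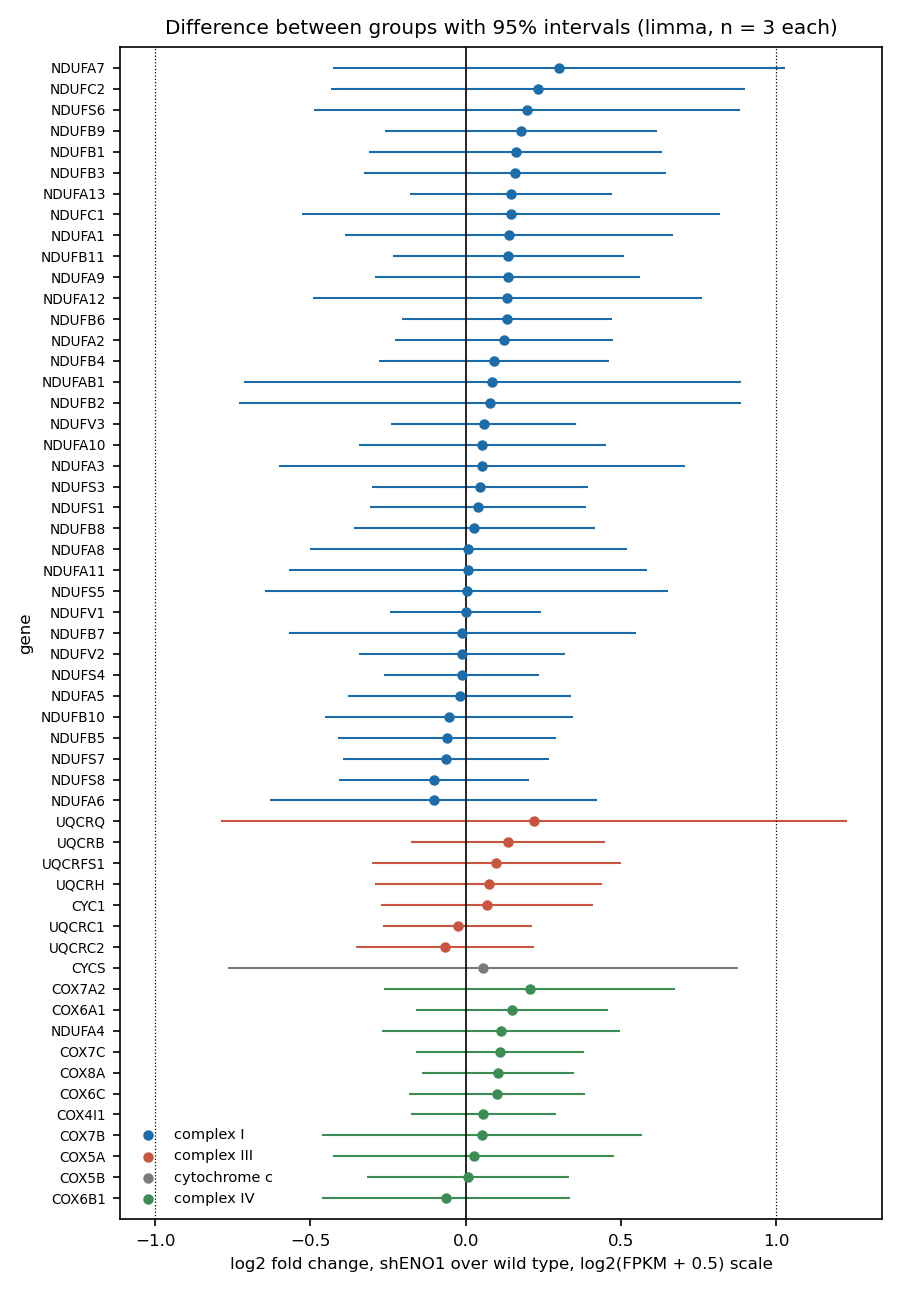
Log2 fold change of shENO1 over wild type on the log2(FPKM + 0.5) scale for 55 of the 56 members, with its 95% interval from limma (n = 3 per group), coloured by complex. Dotted lines mark a 2-fold change. Every interval includes 0, and those of NDUFA7 and UQCRQ reach past the upper dotted line.

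The 3 complexes gave similar medians, whose sign in complexes I and III changed when single libraries were left out. The median log2 fold change was 0.05 in complex I (26 of 37 above 0), 0.07 in complex III (5 of 7) and 0.10 in complex IV (10 of 11). Leaving out 1 library at a time gave medians from -0.02 (without shENO1 replicate 3) to 0.22 (without wild type replicate 3) in complex I, from -0.03 (without wild type replicate 1) to 0.18 (without wild type replicate 3) in complex III, and from 0.03 (without wild type replicate 1) to 0.19 (without wild type replicate 3) in complex IV. Within same-numbered pairs the medians for complex I were 0.24, 0.06 and -0.05 in pairs 1 to 3, those for complex III 0.28, 0.09 and -0.04, and those for complex IV 0.24, 0.06 and -0.0076. Over all members, 46 were higher in shENO1 in pair 1, 36 in pair 2 and 20 in pair 3. The same direction in all 3 pairs was found for 10 members, all higher, where 14.1% of genes were higher and 16.2% lower in all 3 pairs. These 10 were NDUFA1, NDUFA7, NDUFA9, NDUFA13, NDUFB3 and NDUFB6 of complex I, CYC1 of complex III, and COX4I1, COX6A1 and COX7A2 of complex IV.

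Summed over its member genes, complex I was measured at 1714, 1882 and 2369 FPKM in wild type, against 1950, 1901 and 2289 FPKM in shENO1. Complex III summed to 961, 1024 and 1127 FPKM in wild type and to 1008, 1052 and 1082 FPKM in shENO1. Its subunits UQCR10 and UQCR11 were not among the members and are not in these sums. Complex IV summed to 1793, 1956 and 2160 FPKM in wild type and to 2090, 2014 and 2147 FPKM in shENO1. In each complex the highest and the lowest sum were both wild type libraries, so that the shENO1 values lay inside the wild type range. The sum over all members averaged 5126 ± 664 FPKM in the wild type group (SD, n = 3). In the shENO1 group it averaged 5309 ± 342 FPKM (SD, n = 3), or 104% of the wild type mean. As a share of the library's FPKM without the 5 small RNAs named above, it was 0.851%, 0.915% and 0.988% in wild type and 0.944%, 0.935% and 0.976% in shENO1.

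**Figure D3:**
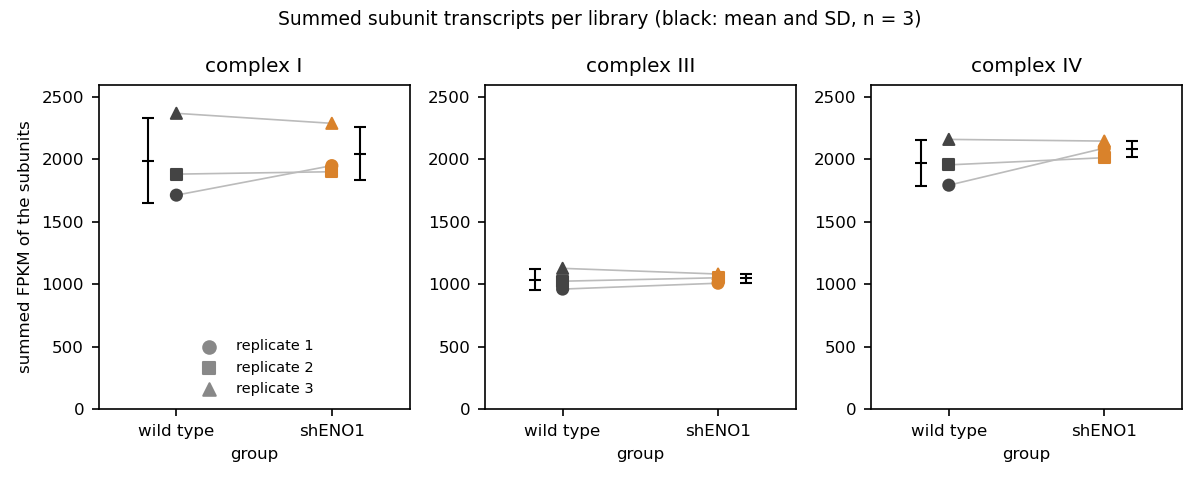
Summed FPKM of the member genes of complexes I, III and IV in each library, from 0. Grey lines join libraries with the same replicate number, and black bars give the mean and SD (n = 3). In all 3 complexes the shENO1 sums lie within the range of the wild type sums.

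Within complex I the genes were grouped by the arm in which their product sits. The 7 core subunits of the peripheral arm, which between them carry the flavin and the iron-sulfur clusters, had 2 members above 0 and a median log2 fold change of -0.01. The 9 accessory subunits of that arm had 6 above 0 and a median of 0.12, and the 21 subunits assigned to the membrane arm had 18 above 0 and a median of 0.09. None of the members passed the test in any of these groups, and the difference between arms was not tested.

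NDUFV1, which holds the flavin that accepts electrons from NADH, was measured at 130.0, 133 and 131 FPKM in wild type, against 132, 138 and 124 FPKM in shENO1. The 6 values lay close together, and the log2 fold change was -7.7e-05 (SE 0.10). NDUFS1, the largest iron-sulfur subunit, was measured at 53.6, 52.97 and 61.5 FPKM in wild type, against 49.2, 58.0 and 66.5 FPKM in shENO1. Both the lowest and the highest value were shENO1 libraries, and the log2 fold change was 0.04 (SE 0.15). NDUFB8, an accessory subunit of the membrane arm, was measured at 61.8, 76.0 and 89.1 FPKM in wild type, against 73.6, 70.2 and 86.1 FPKM in shENO1. Both extremes were wild type libraries, and the log2 fold change was 0.03 (SE 0.17).

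The 6 complex I members with the smallest unadjusted p, which ran from 0.324 to 0.435, were accessory subunits and had positive log2 fold changes. NDUFA13, also known as GRIM-19, was measured at 89.2, 100.1 and 119 FPKM in wild type, against 113, 106 and 119.9 FPKM in shENO1 (log2 fold change 0.15, SE 0.14). NDUFB9 was measured at 73.4, 83.7 and 118 FPKM in wild type, against 97.6, 97.9 and 111 FPKM in shENO1 (log2 fold change 0.18, SE 0.19). In both genes wild type replicates 1 and 2 lay below all 3 shENO1 libraries and wild type replicate 3 lay among or above them. NDUFB11, an X-linked subunit, was measured at 29.2, 30.4 and 40.2 FPKM in wild type, against 35.1, 34.6 and 39.3 FPKM in shENO1, which is the same arrangement. NDUFB6 was measured at 18.4, 18.6 and 22.4 FPKM in wild type, against 21.6, 20.2 and 23.4 FPKM in shENO1. NDUFA2 was measured at 25.1, 29.5 and 34.4 FPKM in wild type, against 30.8, 33.9 and 31.8 FPKM in shENO1. Wild type replicates 1 and 2 were lowest in these 2 genes as well, and their log2 fold changes were 0.13 (SE 0.14) and 0.12 (SE 0.15). NDUFA7, at the lower end of expression, was measured at 6.89, 11.9 and 15.4 FPKM in wild type, against 11.0, 12.7 and 17.4 FPKM in shENO1. It had the largest log2 fold change of the members, 0.30 (SE 0.31), and without wild type replicate 1 the value was -0.0089.

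In complex III, no subunit differed beyond the spread between replicates. UQCRC2, a core protein facing the matrix, was measured at 272, 263 and 249 FPKM in wild type, against 239, 283 and 228 FPKM in shENO1. The shENO1 values spread on both sides of the wild type values, and the log2 fold change was -0.07 (SE 0.12). UQCRFS1, the Rieske iron-sulfur protein, was measured at 22.1, 26.4 and 32.1 FPKM in wild type, against 27.0, 26.9 and 31.9 FPKM in shENO1 (log2 fold change 0.10, SE 0.17). UQCRB, an accessory subunit, was measured at 28.2, 31.4 and 34.5 FPKM in wild type, against 36.5, 34.9 and 32.0 FPKM in shENO1. For UQCRB only wild type replicate 3 reached into the shENO1 range, and its log2 fold change was 0.14 (SE 0.13, exact two-sided permutation p 0.2). UQCRH, CYC1, which carries the heme of cytochrome c1, and UQCRC1 had log2 fold changes of 0.07, 0.07 and -0.03. UQCRQ had the largest standard error of the members, 0.43, beside a log2 fold change of 0.22, and was measured at 18.1, 22.7 and 60.9 FPKM in wild type, against 34.4, 27.6 and 42.2 FPKM in shENO1. The single value of wild type replicate 3 was above all others.

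CYCS, the mobile carrier between complexes III and IV that also takes part in apoptosis, was measured at 85.9, 105.5 and 198 FPKM in wild type, against 102, 108 and 184 FPKM in shENO1. Both libraries numbered 3 stood above the other 4, and the log2 fold change was 0.06 (SE 0.35). Without shENO1 replicate 3 it was -0.21, and without wild type replicate 3 it was 0.41. CYCS has 40 pseudogenes in the table, whose summed FPKM reached 10.1% of its own level.

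In complex IV, 10 of 11 subunits had a log2 fold change above 0, and none passed the test. COX6A1, the ubiquitous form of subunit VIa, was measured at 221, 227 and 276 FPKM in wild type, against 273, 242 and 285 FPKM in shENO1 (log2 fold change 0.15, SE 0.13). COX7A2 was measured at 67.9, 79.1 and 111.0 FPKM in wild type, against 94.9, 87.0 and 111.2 FPKM in shENO1 (log2 fold change 0.21, SE 0.20). In both genes wild type replicate 3 lay within the shENO1 range and the other wild type libraries lay below it. COX7C was measured at 205, 229 and 253 FPKM in wild type, against 248, 245 and 247 FPKM in shENO1 (log2 fold change 0.11, SE 0.12). COX8A was measured at 259, 283 and 263 FPKM in wild type, against 305, 282 and 279 FPKM in shENO1 (log2 fold change 0.10, SE 0.10). The shENO1 values of COX7C lay inside the wild type range, and for COX8A only wild type replicate 2 reached into the shENO1 range. NDUFA4 was measured at 35.5, 34.6 and 48.0 FPKM in wild type, against 40.8, 39.5 and 46.5 FPKM in shENO1 (log2 fold change 0.11, SE 0.16). Counting NDUFA4 with complex I changed the medians to 0.06 in complex I and 0.08 in complex IV. COX6B1, COX5A, COX5B, COX7B and COX6C had log2 fold changes of -0.06, 0.03, 0.0075, 0.05 and 0.10, and COX4I1 had 0.06 (SE 0.10).

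The libraries numbered 3 differed from the others in both groups. Replicate 3 exceeded the mean of replicates 1 and 2 (log2 scale) in 52 of 56 members in wild type and in 44 in shENO1, with 43 in both, and the median difference was 0.37 in wild type and 0.21 in shENO1. Of the 17870 genes tested, 8427 exceeded that mean in wild type, 8567 in shENO1 and 6388 in both. Over all genes tested the medians were -0.04 and -0.02. By complex, the medians in wild type and shENO1 were 0.39 and 0.26 for complex I, 0.32 and 0.21 for complex III, and 0.30 and 0.15 for complex IV. CYCS had the values 1.05 and 0.81, and NDUFB2 and NDUFAB1 had 1.05 and 0.80, and 1.09 and 0.73. NDUFAB1, the mitochondrial acyl carrier protein, was measured at 79.0, 84.8 and 175 FPKM in wild type, against 98.1, 91.1 and 157 FPKM in shENO1. COX4I1 was among the genes nearest 0 in both groups, with 0.0089 and -0.03, and NDUFS6 and NDUFA3 had opposite signs, with 0.96 and -0.12, and 0.52 and -0.56. Across the 56 members the differences in the 2 groups had a Pearson correlation of 0.543 and a Spearman correlation of 0.548, given as a description since genes of 1 library share its depth and scaling. With transcript length the Spearman correlation was -0.356 in wild type and -0.0417 in shENO1. Related genes were also highest in replicate 3 when summed, as was ENO1. The nuclear-encoded ATP synthase subunits summed to 2156, 2416 and 3216 FPKM in wild type and to 2428, 2535.5 and 3175 FPKM in shENO1. For the mitochondrially encoded subunits the sums were 12385, 12402 and 17401 FPKM, against 11877.5, 12799 and 14167 FPKM. Their median log2 level in shENO1 was highest in replicate 2, at 9.36. Of the 6 myeloid markers, LYZ was highest in both libraries numbered 3, at 461 and 482 FPKM, as was CSF1R at 1.83 and 2.56 FPKM. CD68 was highest in replicate 2 of both groups, at 32.9 and 34.7 FPKM, ELANE in wild type replicate 2 and shENO1 replicate 3, at 48.4 and 43.8 FPKM, and CD14 and MPO stayed under 0.5 FPKM. The markers thus did not share 1 pattern, and their part in these differences was not tested.

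**Figure D4:**
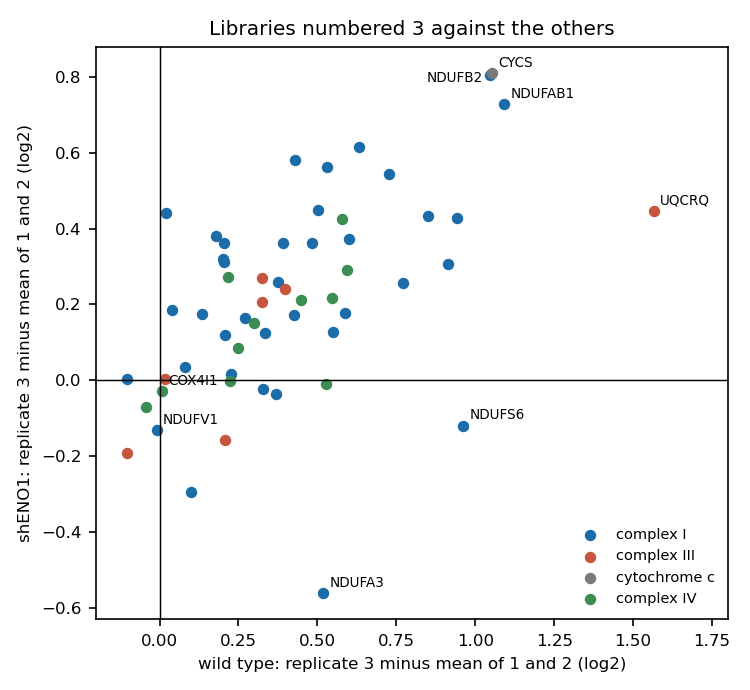
Difference of replicate 3 from the mean of replicates 1 and 2 on the log2 scale, in wild type (x axis) and in shENO1 (y axis), for each of the 56 members, coloured by complex. Of these, 43 points lie above 0 on both axes, with CYCS, NDUFB2 and NDUFAB1 farthest out on both and UQCRQ farthest out on the wild type axis.

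Leaving out wild type replicate 3 brought 5 members to an unadjusted p under 0.05, all higher in shENO1, where 1.89% of all genes were so. These were NDUFB9, NDUFC1, NDUFS6, COX7A2 and UQCRQ, listed after their values were seen, with log2 fold changes of 0.38, 0.46, 0.52, 0.40 and 0.74. Without both libraries numbered 3, NDUFB9, NDUFS6, COX7A2 and UQCRQ remained under that p, where 2.56% of all genes were higher at this level. No member passed the adjusted threshold in either fit, in which the limma adjusted p of these genes was 0.947 and 0.986.

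The other genes of oxidative phosphorylation gave 0 calls at the adjusted threshold, with small medians. The nuclear-encoded subunits of ATP synthase had 13 of 15 genes above 0 and a median log2 fold change of 0.04, with ATP5MF at 0.22 (SE 0.27) and ATP5MC3 at 0.14 (SE 0.23). The complex II genes, whose enzyme succinate dehydrogenase passes electrons from succinate to ubiquinone, had 4 of 5 entries above 0 and a median of 0.10. Of these SDHD has a pair of identifiers. The entry with the higher level (mean 81.6 FPKM) had a log2 fold change of 0.097 (SE 0.145). The other (mean 10.8 FPKM) was at 0.87 (SE 0.56), with a low value of 2.30 FPKM in wild type replicate 2. SDHA was at 0.09 (SE 0.12). The 13 subunits encoded by mitochondrial DNA had 1 above 0 and 12 below, and a median of -0.11, with MT-ND4 at -0.16 (SE 0.15) and MT-ND4L at -0.15 (SE 0.16). In pair 3 none of the 13 was above 0 and their median was -0.32, whereas 10 of 13 were above 0 in pair 2, so the direction differed between pairs.

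Of the complex III and IV subunits outside the member list, COX7A2L had the smallest p. COX7A2L, which takes part in joining complexes III and IV into supercomplexes, was measured at 87.4, 92.4 and 89.2 FPKM in wild type, against 69.6, 77.5 and 76.8 FPKM in shENO1. All shENO1 values were below all wild type values, with a log2 fold change of -0.26 (SE 0.11), an unadjusted limma p of 0.0436 and an adjusted p of 0.99986. COX8C, a form known from testis, was at 0.35 (SE 0.26), and the list of 7 tested genes had 3 above 0 and a median of -0.11. UQCR10 and UQCR11 of complex III were at 0.11 (SE 0.23) and 0.03 (SE 0.25). The tissue forms COX4I2, COX6A2 and COX7B2 were listed at 0 in all libraries, and COX6B2 was below the filter.

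Assembly factors build the complexes without remaining in them. Those of complex III had 4 of 6 genes below 0 and a median of -0.10. UQCC1, which acts in the early assembly of cytochrome b, was measured at 32.3, 32.1 and 36.2 FPKM in wild type, against 26.3, 26.9 and 27.6 FPKM in shENO1. Its groups did not overlap, with a log2 fold change of -0.31 (SE 0.12), an unadjusted limma p of 0.0362 and an adjusted p of 0.99986. LYRM7, which helps to insert the Rieske protein, and TTC19 were also lower without overlap, at -0.17 (SE 0.15) and -0.11 (SE 0.11), where 3.28% of all genes were lower without overlap. The complex I assembly factors had 9 of 14 above 0 and a median of 0.05, with ACAD9 at 0.17 (SE 0.15) and NDUFAF1 at 0.26 (SE 0.27). The complex IV assembly factors had 11 of 21 entries above 0 and a median of 0.00078, with COX14 at 0.29 (SE 0.20) and COX20 at 0.15 (SE 0.13).

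Transcriptional regulators of respiratory genes had 3 of 11 above 0 and a median log2 fold change of -0.07, with 0 passing the test. PPARGC1A, the coactivator known for driving mitochondrial biogenesis, was low in all libraries, at 1.67, 1.47 and 0.479 FPKM in wild type, against 2.75, 1.65 and 1.93 FPKM in shENO1 (log2 fold change 0.67, SE 0.36). MYC, which is translocated in Burkitt lymphoma, was measured at 78.0, 148 and 162 FPKM in wild type, against 70.7, 115 and 140 FPKM in shENO1 (log2 fold change -0.24, SE 0.34). The groups overlapped for both genes. MYC was lower in shENO1 in each same-numbered pair, with differences of -0.14, -0.35 and -0.22 on the log2 scale. With the replicate block its SE was 0.06 and its limma p 0.012 unadjusted and 0.6003 adjusted, where 3.78% of all genes were lower at an unadjusted p under 0.05. In that fit COX7A2L, UQCC1 and COX19, also lower, had unadjusted limma p of 0.0045, 0.0054 and 0.038. COX14, which was higher, had 0.0148, where 3.77% of all genes were higher at an unadjusted p under 0.05. None passed after adjustment. NRF1, GABPA and YY1, the factors of the promoter motifs described above, had log2 fold changes of -0.10 (SE 0.15), 0.06 (SE 0.13) and -0.07 (SE 0.17).

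**Figure D5:**
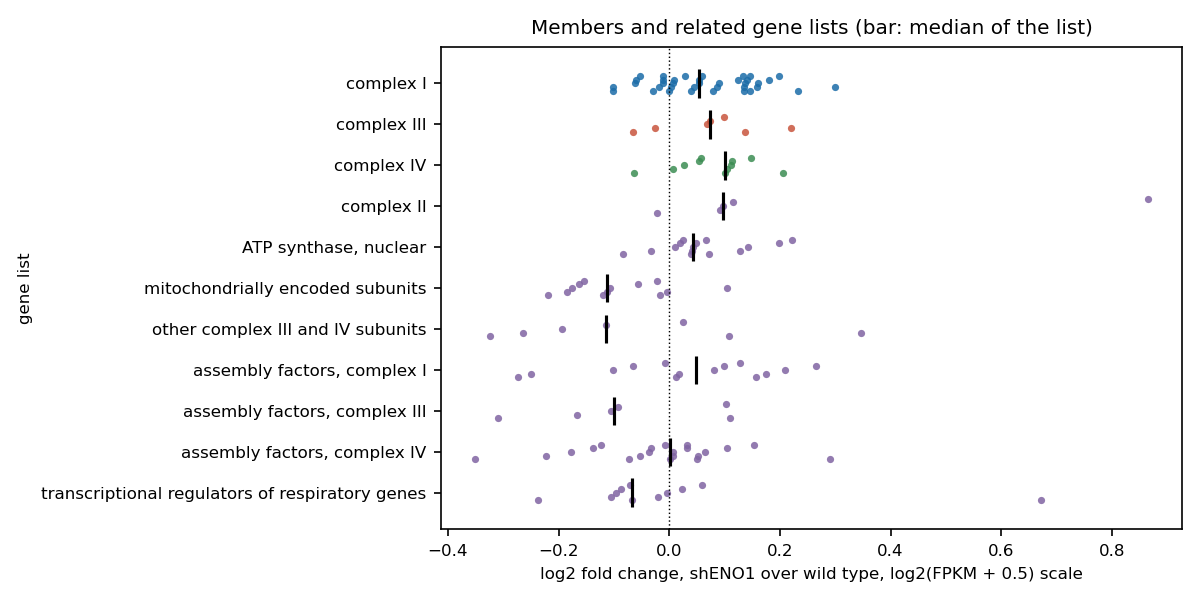
Log2 fold change of shENO1 over wild type on the log2(FPKM + 0.5) scale for complexes I, III and IV and for 8 related gene lists, where each point is a gene and each black bar the median of its list. The medians of the lists lie between -0.11 and 0.10. Those of the mitochondrially encoded subunits, the other complex III and IV subunits, the complex III assembly factors and the regulators lie left of 0. The other medians lie on the right, with that of the complex IV assembly factors at 0.00078.

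Some members share sequence or position with other genes, which can divide their reads. Exon bases of 29 members overlap another annotated gene, on the same strand for 16, and the sources used here do not say whether reads were counted by strand. Pseudogenes of 31 members are in the table as 142 entries, and the pseudogene sum exceeded 1% of the member's level for 12 members. The highest share was 15.3%, for COX7B.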

How the data were processed

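RNA-seq of 3 wild type and 3 shENO1 libraries was analysed. The deposited unit was FPKM, computed by the authors in Cuffnorm. STAR and Cufflinks are also listed in the submitters' processing notes, with hg38 and GRCh38 as builds and no versions. Library scaling, annotation and strand use are not given in the sources used here. For its own calls the study ran DESeq2 on reads, which were not used here. FPKM is per length, and a few short structural RNAs hold a large share of each sum.

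Genes with at least 0.5 FPKM in at least 3 libraries were transformed as log2(FPKM + 0.5) and tested two-sided by limma 3.58.1 (R 4.3.3) using an intensity trend, with p-values adjusted over all 17870 genes by the Benjamini-Hochberg method. Calls required an adjusted p under 0.05 and, as in the study, an absolute log2 fold change over 1. The fit was tested on simulated data with known changes. Relative depth is an estimate, taken as the modal ratio of low values between libraries, near which 10.5% to 15.2% of genes lay.

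The members and lists were chosen with earlier results of these data known. Values in all libraries are given for ENO1, NDUFA4, NDUFB8, NDUFS1, NDUFV1 and CYCS, for the 6 complex I, 3 complex III and 4 complex IV members with the smallest p, for members whose groups do not overlap, and for those with the highest and lowest mean. In each related list the 2 genes with the smallest p are named. Others, such as NDUFAB1, UQCRQ, LYRM7, TTC19 and the motif factors, were named after their values were seen.

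After group means were removed, same-numbered libraries correlated across genes at 0.312, 0.176 and 0.491, and the other pairs at -0.390 to 0.144. The pairing comes from these values, since no label ties a number to a batch or day. A fit with the number as a block, which leaves 2 residual degrees of freedom against 4, was run beside the other.

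Of 58273 identifiers, 58010 were found in GENCODE release 29 without their version, among them all 56 members. Promoters came from RefSeq. For 9 members no promoter was matched. The results of 1 complex I member are not reported here by name, and it was left out of the plots that name genes. Figures were drawn with matplotlib 3.10.9 in Python 3.11.15. The alternatives were pseudocounts of 0.1 and 1 FPKM, no filter, a filter of 1 FPKM, 3 other scalings, the block, library weights, and leaving out each library or both numbered 3. The count of members above 0 under them was added after seeing the data.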

Additional observations from a re-analysis of the deposited data

How the results depend on the processing

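Across 16 alternative fits, 0 members passed the adjusted threshold in any. Over all genes, 0 were called in the main limma fit on FPKM and 1 (ENO1) with the replicate block, which changed no call of a member. With library weights 4 were called (ENO1, TAF9 and the 7SL pseudogenes RN7SL430P and RN7SL426P). Without both libraries numbered 3, 2 were called (ENO1 and AL590762.4). ENO1 passed in these 3 fits, at log2 fold changes of -2.14, -2.08 and -2.08, and leaving out 1 library gave -2.37 to -1.85. Its limma adjusted p ran from 0.00374 to 0.9996 over the alternatives. Of the 20 named members, 13 kept the sign of their log2 fold change in every fit. NDUFV1, close to 0, reversed to 0.042 with libraries scaled to the same sum, 0.022 when centred on the median, 0.027 with library weights and 0.041 without both libraries numbered 3, and ranged from -0.038 to 0.043 when 1 library was left out. NDUFB8 reversed to -0.023 with library weights and ranged from -0.11 to 0.15 when 1 library was left out. The ranges that crossed 0 were -0.21 to 0.41 for CYCS, -0.0089 to 0.54 for NDUFA7, -0.030 to 0.23 for UQCRFS1, -0.013 to 0.52 for NDUFS6 and -0.064 to 0.15 for NDUFS1. Scaling to the same sum moved the median of all genes to 0.04 and those of complexes I, III and IV to 0.10, 0.12 and 0.14. The causes were not tested. With 3 libraries a group, the half-widths of the members' 95% intervals were 0.23 to 1.01 on the log2 scale, and absolute depth is unknown.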
